A study of Homo sapiens with 16 samples.

Results

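In IMR90 lung fibroblasts, a human cell line, 9 gene loci held few or no ATAC-seq peaks while an inducible Raf kinase was off and several in every library once it was on. These loci were TRIM63, MATK, CHST15, OBP2B, KRTAP12-4, AQP12B, IDI2, SULT1A2 and ZDHHC11, 9 of the 19974 protein-coding loci annotated and of the 15175 with a mean of at least 3 peaks over the libraries. A locus is the gene body with 10 kb added at either end, and its value is the number of distinct peaks with a summit inside it. The 9 were selected on their peak numbers in these same libraries, near 0 without Raf and higher with it, so every difference between Raf-active and Raf-inactive cells at these loci is given as a description, without a test. All 9 passed the filter on low values, which the Raf-active libraries alone could bring about.

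ATAC-seq marks open chromatin by where the Tn5 transposase can insert adapters. The cells carried a retroviral ΔB-RAF:ER fusion, a truncated B-RAF kinase tied to an estrogen receptor domain that 4-hydroxytamoxifen (4-OHT) switches on. There were 4 groups of 4 libraries: Raf-active and Raf-inactive cells in hypoxia at 0.5% oxygen, and Raf-active and Raf-inactive cells in normoxia. All were made with one protocol, from 100000 harvested cells and 50000 counted nuclei, and the labels do not say how the Raf-inactive cells were kept inactive, whether replicates came from separate cultures, or whether the infected cells were a clone or a pool. The p-values below therefore cover only how far these libraries spread, and part of that may be technical.

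Sustained Raf and ERK signalling drives normal fibroblasts into oncogene-induced senescence, a stable arrest with wide changes in chromatin. The 9 genes are better known from other tissues. TRIM63 encodes MuRF1, a ubiquitin ligase that marks proteins of wasting muscle for breakdown; MATK encodes a tyrosine kinase that restrains Src family kinases in blood cells and brain. CHST15 adds a second sulfate to chondroitin sulfate, OBP2B encodes a secreted lipocalin that carries small hydrophobic molecules, and KRTAP12-4 a protein of the hair keratin matrix. AQP12B encodes an aquaporin kept inside the cell, IDI2 an isomerase of isoprenoid synthesis known in skeletal muscle, SULT1A2 a sulfotransferase for phenols, and ZDHHC11 an enzyme of the family that attaches palmitate to proteins. No RNA was measured here, so an open locus is not shown to be an expressed gene.

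Across the 16 lists, 169287 to 206757 distinct peaks were found per library. The background pileup recovered from the lists, which stands in for depth, was higher in the Raf-active groups. It averaged 7.32 ± 0.75 in Raf-active and 4.79 ± 0.19 in Raf-inactive hypoxia, and 6.75 ± 0.45 in Raf-active and 3.23 ± 0.24 in Raf-inactive normoxia (SD, n = 4 each). A list holds only what the peak caller accepted, so a locus with no peak had none called at that depth. For that reason the peak numbers are also given from lists thinned to the lowest background, 3.01. Fibroblast identity was checked on 10 marker loci, all of which were tested. Their summed peaks ranged from 91 to 99 per library in Raf-active hypoxia, 97 to 101 in Raf-inactive hypoxia, 103 to 110 in Raf-active normoxia and 90 to 96 in Raf-inactive normoxia. After scaling, 1 was higher and 6 lower with Raf in hypoxia, with a median log2 difference of -0.38, and 2 were higher and 3 lower in normoxia, with a median of -0.05 (limma, adjusted p below 0.05). COL1A2, a chain of type I collagen, fell by 0.73 in hypoxia and by 0.99 in normoxia on the log2 scale.

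The peaks at the 9 loci touched the annotated start of the gene in only some cases, and 4 promoters are shown because a peak covered part of each in all 8 Raf-active libraries. Each window runs from 250 bases before to 50 bases after the start, 5′ to 3′ on the gene's own strand, which is the minus strand for all 4, and was taken from RefSeq (GRCh38.p14). Capitals mark the bases that lay inside a called peak in all 8 Raf-active libraries. The windows are chr1:26067581-26067880 for TRIM63, chr10:1025810-1026109 for IDI2, chr10:124093549-124093848 for CHST15 and chr19:3801750-3802049 for the outermost start of MATK.
TRIM63: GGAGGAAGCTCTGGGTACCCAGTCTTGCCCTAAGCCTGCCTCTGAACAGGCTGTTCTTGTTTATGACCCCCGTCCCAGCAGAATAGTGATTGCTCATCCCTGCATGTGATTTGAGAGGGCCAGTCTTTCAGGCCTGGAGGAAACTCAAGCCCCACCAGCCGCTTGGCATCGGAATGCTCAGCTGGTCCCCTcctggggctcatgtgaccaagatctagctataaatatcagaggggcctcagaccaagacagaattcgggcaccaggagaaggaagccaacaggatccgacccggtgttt
IDI2: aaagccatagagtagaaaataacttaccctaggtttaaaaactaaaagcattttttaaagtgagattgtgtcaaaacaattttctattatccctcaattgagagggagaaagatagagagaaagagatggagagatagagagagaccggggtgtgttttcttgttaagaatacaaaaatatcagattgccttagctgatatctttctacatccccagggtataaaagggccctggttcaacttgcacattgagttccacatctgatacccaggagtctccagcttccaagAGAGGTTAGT
CHST15: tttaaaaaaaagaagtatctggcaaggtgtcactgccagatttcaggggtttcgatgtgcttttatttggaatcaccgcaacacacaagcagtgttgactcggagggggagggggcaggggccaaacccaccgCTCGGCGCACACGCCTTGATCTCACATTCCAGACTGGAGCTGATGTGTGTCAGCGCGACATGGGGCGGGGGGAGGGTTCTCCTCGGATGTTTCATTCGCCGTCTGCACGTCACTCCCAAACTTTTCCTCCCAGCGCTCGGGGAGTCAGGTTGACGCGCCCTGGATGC
MATK: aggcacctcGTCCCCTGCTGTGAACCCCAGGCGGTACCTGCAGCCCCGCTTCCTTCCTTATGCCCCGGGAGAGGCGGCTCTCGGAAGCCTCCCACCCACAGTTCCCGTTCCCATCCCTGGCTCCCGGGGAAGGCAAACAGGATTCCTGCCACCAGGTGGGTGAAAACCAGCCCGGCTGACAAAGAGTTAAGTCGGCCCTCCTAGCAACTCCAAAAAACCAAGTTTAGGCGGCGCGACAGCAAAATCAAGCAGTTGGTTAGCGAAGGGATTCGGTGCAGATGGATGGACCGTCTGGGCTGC

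In TRIM63 the shared peak covered 191 of the 300 bases, all of them on the upstream side, and the bases around the start itself lay outside it. In IDI2 it covered only the last 10 bases, downstream of the start, since the peak lay mostly inside the gene. CHST15 had 167 bases and MATK 291 bases covered. No Raf-inactive library had a peak over the TRIM63 or IDI2 window. Over the CHST15 window there was a peak in 2 of 4 Raf-inactive hypoxia and 1 of 4 Raf-inactive normoxia libraries, and the same numbers held for the MATK window.

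RefSeq promoter windows were matched for 8 of the 9 genes, 10 windows in all, and SULT1A2 had no entry. Raf-active peaks touched a window of 5 of these 8 genes. At ZDHHC11 this was 1 library, a Raf-active hypoxia one, and no peak touched the windows of OBP2B, KRTAP12-4 or AQP12B. MATK had 2 further starts closer to the gene's other end, with a peak over one of them in 2 of 4 Raf-active hypoxia and 4 of 4 Raf-active normoxia libraries. The letters TGANTCA, the AP-1 site, were searched on both strands and found in none of the 10 windows, against 6.15% of all 22132 windows of that length. ACGTG, the core of the hypoxia response element, was found in 4 of 10, CHST15 among the 4 shown, against 23.1% of all windows. A match of letters is not a bound site, and 3 of the 10 windows were above the median GC content of all windows, 62.3%.

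TRIM63 (chr1:26051301-26067630) separated the groups with no exception. It had 7, 7, 8 and 8 peaks in the Raf-active hypoxia libraries and 7, 8, 8 and 10 in the Raf-active normoxia libraries, against none in any of the 8 Raf-inactive libraries. On the scale of log2(scaled peaks + 1), the difference of Raf-active minus Raf-inactive cells was 3.0 in hypoxia and 3.07 in normoxia, the highest of all 15175 loci in each. Where one group is at 0 this size depends on the 1 added before taking logs and is no bound on the fold.

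MATK (chr19:3777973-3801799) had 6, 8, 5 and 8 peaks in Raf-active hypoxia and 13, 8, 7 and 9 in Raf-active normoxia. Raf-inactive hypoxia libraries had 0, 1, 0 and 1, and Raf-inactive normoxia libraries 0, 0, 1 and 0. The Raf-active libraries were thus all above the Raf-inactive ones, and 1 Raf-active normoxia library, with 13, stood above the other 3. The Raf difference was 2.31 in hypoxia and 2.93 in normoxia.

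CHST15 (chr10:124007668-124093598) was not silent without Raf. Its Raf-active hypoxia libraries had 22, 18, 18 and 25 peaks and its Raf-active normoxia libraries 25, 23, 19 and 27, against 5, 5, 5 and 6 in Raf-inactive hypoxia and 3, 2, 3 and 2 in Raf-inactive normoxia. It had the most peaks of the 9 loci with Raf active, and a Raf difference of 1.55 in hypoxia and 2.59 in normoxia.

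OBP2B (chr9:133205279-133223255) was the most even of the loci. Each of the 4 Raf-active hypoxia libraries had 6 peaks, and the Raf-active normoxia libraries had 7, 7, 7 and 6. A single peak in 1 Raf-inactive hypoxia library was the only one without Raf. KRTAP12-4 (chr21:44654213-44654659), a gene of 447 bp, had 5, 5, 6 and 5 peaks in Raf-active hypoxia and 6, 6, 7 and 6 in Raf-active normoxia. Raf-inactive hypoxia libraries had 0, 1, 0 and 1 peaks there, and Raf-inactive normoxia libraries none. The Raf differences were 2.45 in hypoxia and 2.82 in normoxia for OBP2B, and 2.01 in hypoxia and 2.73 in normoxia for KRTAP12-4.

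AQP12B (chr2:240676418-240683810) had 8, 4, 9 and 6 peaks in Raf-active hypoxia and 5, 4, 8 and 5 in Raf-active normoxia, against none in Raf-inactive hypoxia and 0, 2, 0 and 1 in Raf-inactive normoxia. IDI2 (chr10:1018910-1025859) had 7, 6, 6 and 7 in Raf-active hypoxia and 9, 7, 5 and 4 in Raf-active normoxia, against none in Raf-inactive hypoxia and 1, 1, 0 and 1 in Raf-inactive normoxia. At both loci the Raf-active normoxia libraries differed among themselves by about as much as their lowest value. SULT1A2 (chr16:28591943-28597050) had 5, 6, 6 and 7 peaks in Raf-active hypoxia and 7, 7, 5 and 7 in Raf-active normoxia, against none in Raf-inactive hypoxia and exactly 1 in each Raf-inactive normoxia library.

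That 1 peak lay in a region of its own, chr16:28586491-28586787, which no Raf-active library had. All the Raf-active peaks of SULT1A2 thus lay elsewhere in the window. ZDHHC11 (chr5:795605-860563) had 14, 15, 16 and 20 peaks in Raf-active hypoxia and 19, 18, 13 and 16 in Raf-active normoxia, against 1, 3, 1 and 1 in Raf-inactive hypoxia and 2, 5, 3 and 5 in Raf-inactive normoxia. Like CHST15 it had at least 1 peak in every library. The Raf differences in hypoxia and in normoxia were 2.82 and 1.86 for AQP12B, 2.82 and 1.89 for IDI2, 2.71 and 1.71 for SULT1A2, and 2.66 and 1.70 for ZDHHC11.

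**Figure D1:**
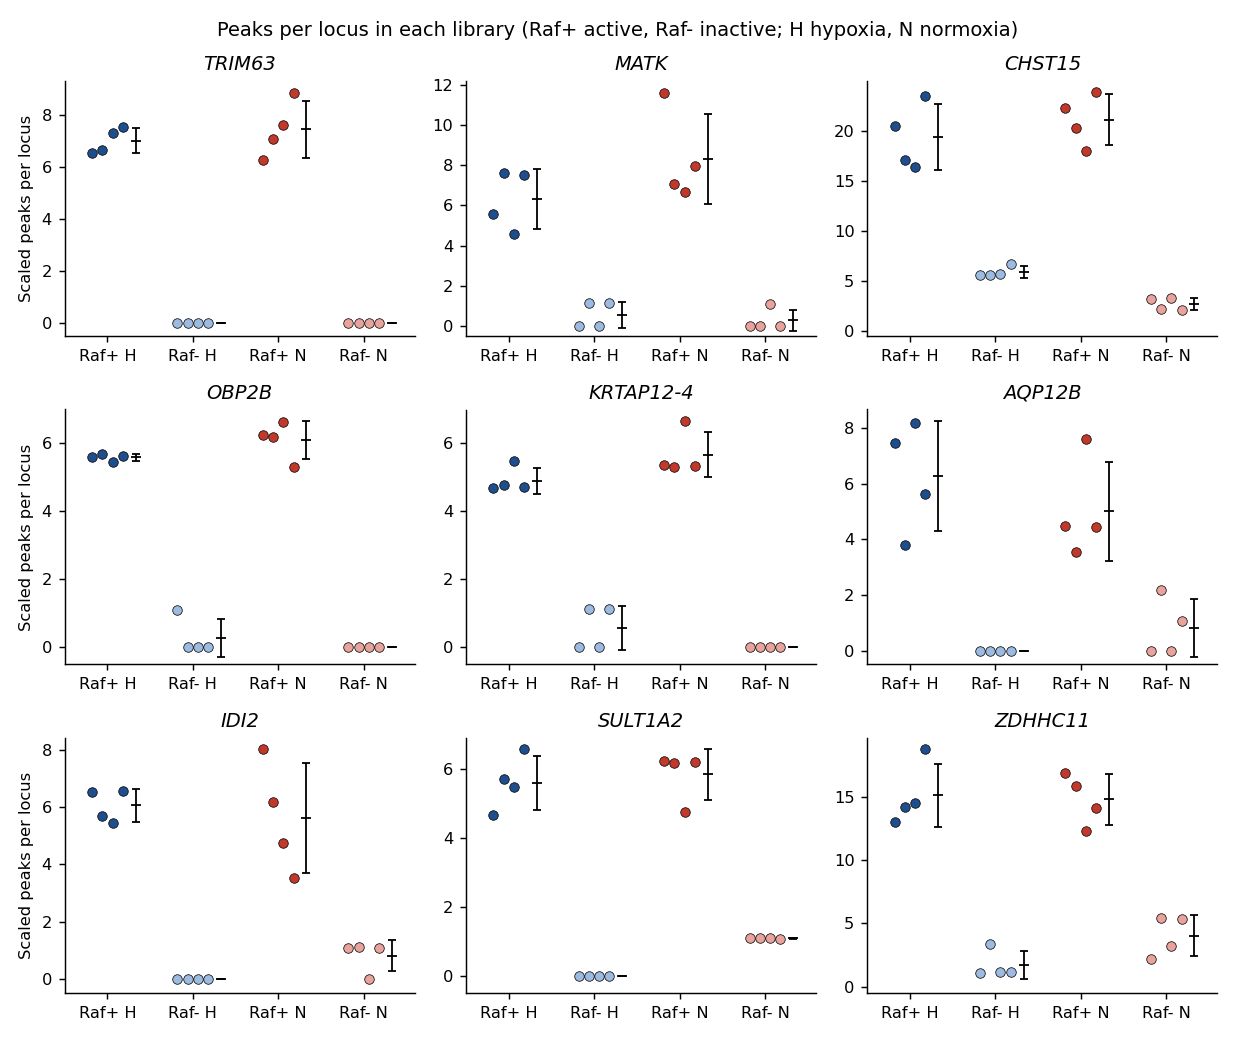
Scaled peaks per locus (peaks scaled to the same total over all loci) for each of the 9 loci, 1 dot per library, with the mean and SD of each group of 4 beside the dots. Raf-active libraries (Raf+) lie above all Raf-inactive libraries (Raf-) of the same oxygen state at each locus, and CHST15 and ZDHHC11 are above 0 in every library.

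In each oxygen state, every Raf-active library was above every Raf-inactive library at 9 of 9 loci. This held at 31.3% of all tested loci in hypoxia and 33.8% in normoxia, and at adjusted p below 0.05 in limma 33.8% of loci were higher in hypoxia and 37.4% in normoxia. Since the 9 were chosen for this contrast, nothing is read from their count. Without scaling, the loci called split into 8104 higher and 2235 lower in hypoxia, and 8602 and 2481 in normoxia, against 5128 and 3999, and 5678 and 3890, with it. The median over all loci was then 0.29 in hypoxia and 0.33 in normoxia, against 0.06 and 0.10 with scaling. The members are thus far from the median of all loci on either scale, as their choice fixes.

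In normoxia TRIM63, MATK and OBP2B ranked 1 to 3 of the rises over all tested loci, KRTAP12-4 ranked 5 and CHST15 6. The loci just outside were TERT, ranked 4 with a difference of 2.78, and IGSF21, ranked 7 with 2.56. In hypoxia TRIM63 ranked 1, AQP12B 3, IDI2 4, SULT1A2 5 and ZDHHC11 6. MUC6, ranked 2 with 2.84, and DRC11L, ranked 7 with 2.64, were just outside. A locus with no Raf-inactive peak in an oxygen state ranks high there by construction.

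Summed over the 9 loci, there were 327 peaks in Raf-active and 32 in Raf-inactive hypoxia, and 355 in Raf-active and 36 in Raf-inactive normoxia. At matched depth the sums were 190 and 24 in hypoxia, and 236 and 27 in normoxia. Per library that was 46 to 50 in Raf-active hypoxia, 5 to 7 in Raf-inactive hypoxia, 55 to 62 in Raf-active normoxia and 5 to 8 in Raf-inactive normoxia. Thinning kept 58.1% of the listed peaks in Raf-active and 75% in Raf-inactive hypoxia, and 66.5% in Raf-active and 75% in Raf-inactive normoxia, so the gap between the Raf states, on which the loci were selected, was smaller at matched depth. It also parted the Raf-active groups, whose summed ranges overlapped as listed (75 to 92 in hypoxia and 79 to 98 in normoxia) and did not overlap at matched depth. How often other loci part in this way at matched depth was not counted, so nothing is read from it. Counting only peaks with 5-fold or more enrichment over the local background, as the authors' caller gave it, the sums were 78 in Raf-active and 13 in Raf-inactive hypoxia, and 90 in Raf-active and 14 in Raf-inactive normoxia. Here the Raf-active ranges per library overlapped, with 17 to 23 in hypoxia and 21 to 24 in normoxia.

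**Figure D2:**
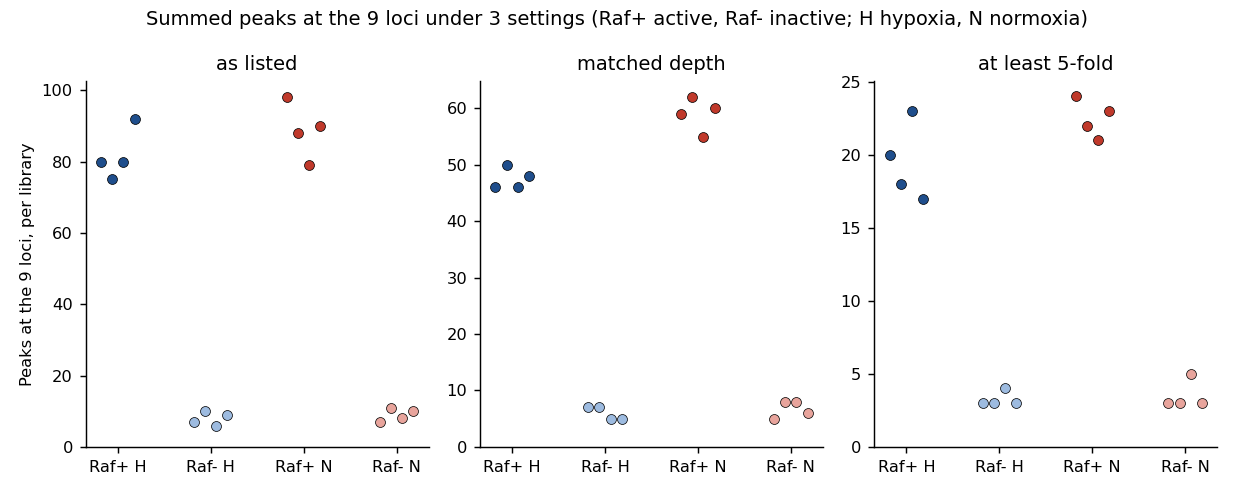
Peaks summed over the 9 loci in each library, as listed, in lists thinned to the lowest background, and counting only peaks with 5-fold or more enrichment. Each dot is a library, and each vertical axis starts at 0. Raf-active libraries (Raf+) are above Raf-inactive ones (Raf-) in all 3 panels. With matched depth the Raf-active normoxia libraries (55 to 62) are above the Raf-active hypoxia ones (46 to 50). As listed these groups overlap, and so they do with 5-fold or more (21 to 24 in normoxia and 17 to 23 in hypoxia).

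Most peaks at these loci were low ones. Ranked by -log10 p within its own list, the median peak of the 9 loci was at percentile 20.7 in Raf-active hypoxia and 25.9 in Raf-active normoxia, where 100 is the strongest peak of the list. The lowest 10% of the list held 30.6% of the peaks of the 9 loci in Raf-active hypoxia and 25.9% in Raf-active normoxia. At least 5-fold enrichment was reached by 23.9% of them in Raf-active hypoxia and 25.4% in Raf-active normoxia, against 57.6% and 57.0% of all peaks in those lists. The loci differed in this respect. KRTAP12-4 kept all of its 21 Raf-active hypoxia and 25 Raf-active normoxia peaks at matched depth, whereas IDI2 kept 9 of 26 and 14 of 25 and had no peak of 5-fold or more.

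**Figure D3:**
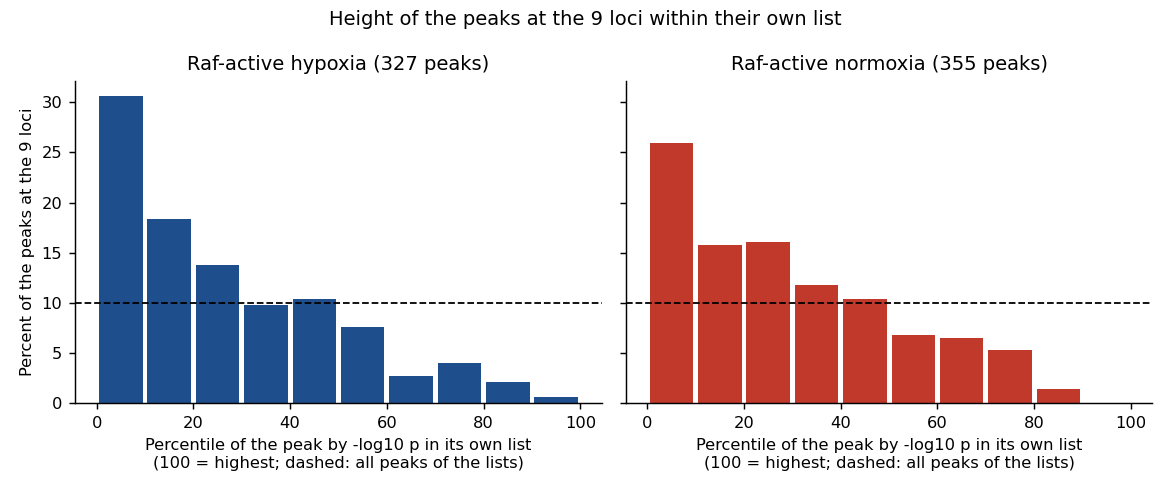
Percent of the peaks at the 9 loci in each 10% of their own list, ordered by -log10 p, for Raf-active hypoxia (327 peaks) and Raf-active normoxia (355 peaks). The dashed line at 10% is the share of all peaks in each step. The bars fall from 30.6% in hypoxia and 25.9% in normoxia in the lowest 10% to 0.612% in hypoxia and 0 in normoxia in the highest.

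The lists were merged into regions shared between libraries, and 107 regions with peaks of at least 2 libraries lay at the 9 loci. Of these, 58 had their summit in a gene body, 3 were present in all 16 libraries, as were 26.3% of all regions, and 22, or 20.6%, had a peak in at least 1 Raf-inactive library, against 72.0% of all regions. A region was taken as gained when all 4 Raf-active libraries and none of the 4 Raf-inactive ones had it: 42 regions were gained in hypoxia, 47 in normoxia and 32 in both. Over all 299052 regions the shares were 13.8% in hypoxia, 14.1% in normoxia and 6.98% in both, and the choice of loci fixes that the members lie above them. At matched depth 22 were gained in hypoxia, 29 in normoxia and 16 in both, or 20.6%, 27.1% and 15.0% of the 107, against 10.1%, 10.6% and 5.02% of all regions. Counting only peaks of 5-fold or more, 10, 13 and 6 were gained, or 9.35%, 12.1% and 5.61%, against 7.71%, 8.28% and 4.11% of all regions. These shares are still of regions of any height. A peak of 5-fold or more in a Raf-inactive library was present at 5.61% of the 107, against 51.9% of all regions, which the choice of loci favours.

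TRIM63 had 9 regions, 6 of them gained in both oxygen states. The strongest by fold in hypoxia lay before the start at chr1:26067650-26068256, up to 9.36-fold in Raf-active hypoxia and 5.09-fold in Raf-active normoxia, and supplied the peak over the promoter printed above. In normoxia the strongest was in the gene body at chr1:26064519-26064940, up to 6.94-fold in Raf-active hypoxia and 8.89-fold in Raf-active normoxia. MATK had 13 regions and 2 gained in both, the stronger at chr19:3785024-3786194, up to 7.61-fold in Raf-active hypoxia and 7.71-fold in Raf-active normoxia. Its region at the outermost start, chr19:3801279-3802195, was in all 8 Raf-active libraries, 2 Raf-inactive hypoxia libraries and 1 Raf-inactive normoxia library.

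At CHST15 there were 28 regions, 5 gained in both states. Inside the gene body, chr10:124033020-124033777 and chr10:124063683-124064353 were present in all 16 libraries. The second reached 20.4-fold in Raf-active hypoxia, 16.5-fold in Raf-inactive hypoxia, 17.8-fold in Raf-active normoxia and 11.9-fold in Raf-inactive normoxia. CHST15 thus had open regions inside the gene in every group, and the Raf-active peaks were additional to them. Another region, chr10:124049569-124049945, was in 4 of 4 Raf-active hypoxia, 3 of 4 Raf-inactive hypoxia and 4 of 4 Raf-active normoxia libraries, and in no Raf-inactive normoxia library. The region at the start, chr10:124091714-124093770, was in 4 of 4 libraries of all groups but Raf-inactive normoxia, where 1 of 4 had it.

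OBP2B had 7 regions, 4 gained in both. Its strongest, chr9:133214143-133214807, reached 11.2-fold in Raf-active hypoxia and 16.8-fold in Raf-active normoxia, and the single Raf-inactive hypoxia peak of this locus fell in it, at 4.28-fold. KRTAP12-4 had 6 regions, 4 gained in both, and none touched its gene body. They flanked the gene on both sides inside the much longer gene TSPEAR, and the strongest, chr21:44658818-44659622, reached 11.5-fold in Raf-active hypoxia and 9.59-fold in Raf-active normoxia.

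AQP12B had 7 regions and 3 gained in both, all in the flanks. IDI2 had 9, of which 3 were gained in both, and its highest peaks were 4.71-fold in Raf-active hypoxia and 3.91-fold in Raf-active normoxia. At SULT1A2, 3 of 7 were gained in both, the strongest at chr16:28587192-28587974 with 6.85-fold in Raf-active hypoxia and 11.04-fold in Raf-active normoxia. ZDHHC11 had 21 regions, 2 of them gained in both and 5 that met the rule for gained in hypoxia but not in normoxia. These 5 were also in 3 or 4 of the 4 Raf-active normoxia libraries. All but chr5:792977-793420 had a peak in 1 or 2 Raf-inactive normoxia libraries too. The region chr5:862717-864323, beyond the gene's 5′ end, was in all 16 libraries, with up to 8.07-fold in Raf-active hypoxia, 14.0-fold in Raf-inactive hypoxia, 6.99-fold in Raf-active normoxia and 9.38-fold in Raf-inactive normoxia.

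**Figure D4:**
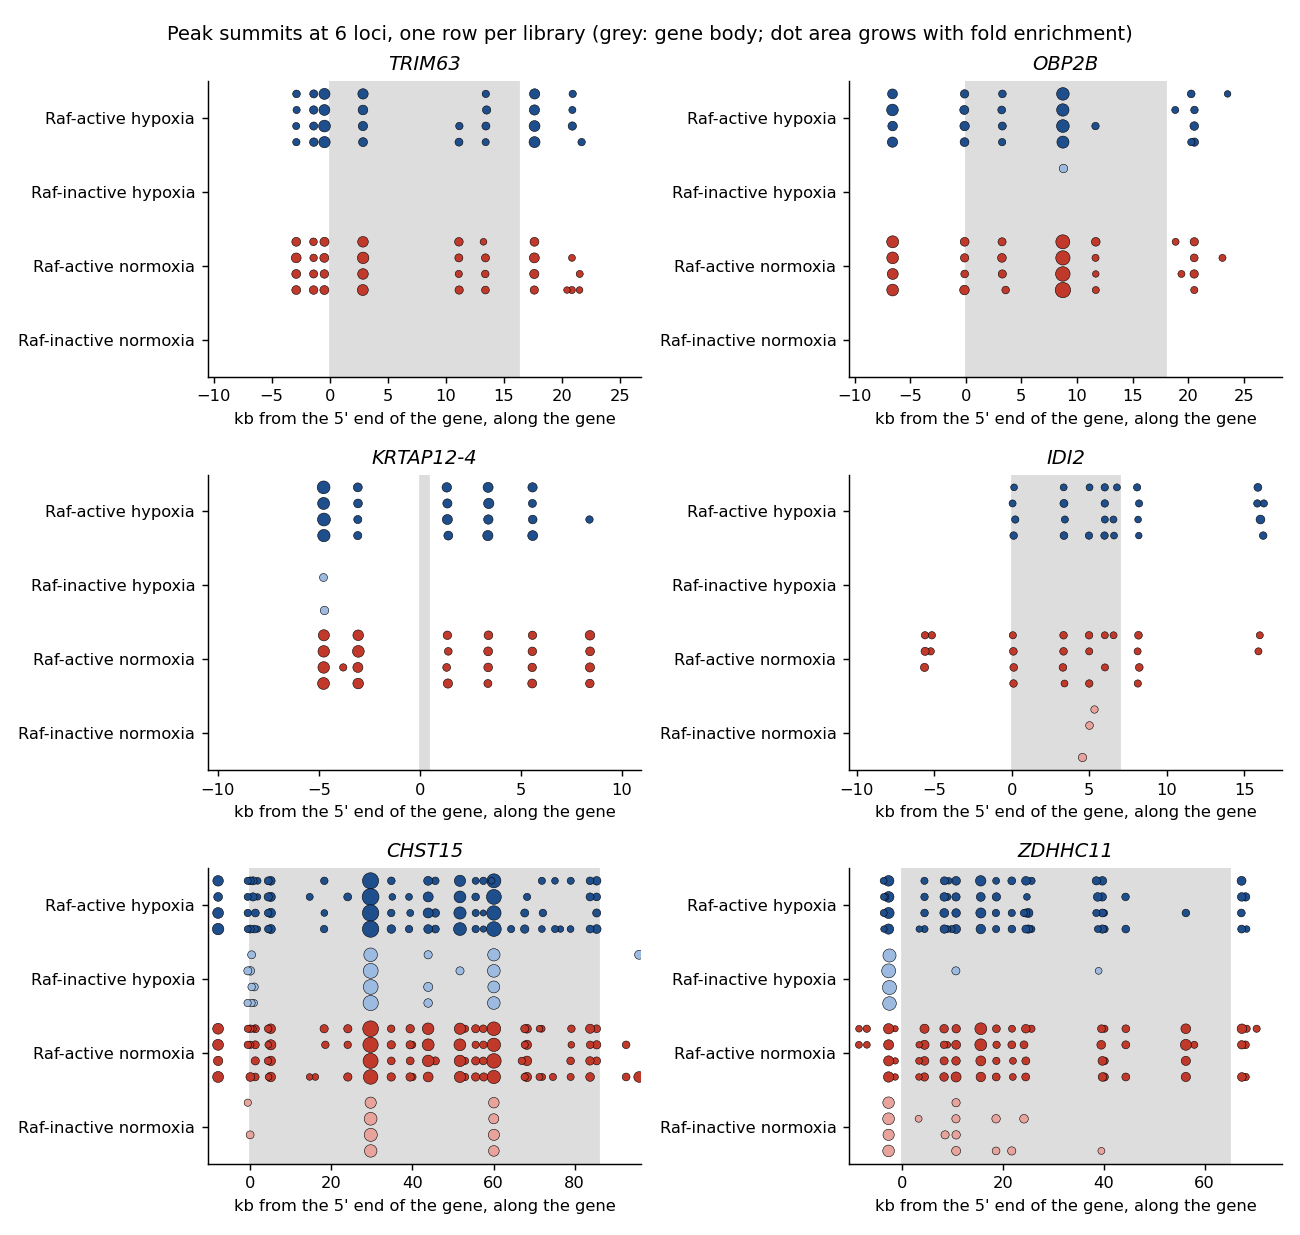
Peak summits along 6 of the loci, by distance in kb from the 5′ end of the gene, with 1 row of dots per library and the gene body in grey. Dot area grows with the authors' fold enrichment. Summits line up between the Raf-active libraries, Raf-inactive rows are empty or nearly so at TRIM63, OBP2B and KRTAP12-4, and at CHST15 columns of dots in the gene body run through all 16 libraries.

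Within the Raf-active cells, hypoxia was set against normoxia. This contrast was not what the loci were chosen for, but the Raf-active values entered the choice. The sign of a difference is thus not independent of which oxygen state a locus led in. Nor is the number of members called independent of a choice that asked for several peaks with Raf. The p-values and intervals of the 9 are therefore descriptions, under every setting below, and nothing is read from how many were called. None of the 9 was called (limma on all 15175 loci, Benjamini-Hochberg adjusted p between 0.40 and 0.95), and 0 of 9 had an unadjusted p below 0.05, whereas 27.1% of all tested loci were called, 13.0% higher and 14.1% lower. Without scaling the split of calls over all loci was 1669 higher and 2762 lower, against 1968 and 2144 with it. The 4 libraries of each group overlapped at all 9 loci, while at 15.2% of tested loci every hypoxia library was above every normoxia library, and at 14.7% below.

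TRIM63 averaged 6.99 ± 0.48 scaled peaks in Raf-active hypoxia and 7.44 ± 1.09 in Raf-active normoxia (SD, n = 4 each), a log2 difference of -0.07 with a 95% interval from -0.24 to 0.10. SULT1A2 averaged 5.60 ± 0.79 in Raf-active hypoxia and 5.84 ± 0.73 in Raf-active normoxia, a log2 difference of -0.05 with an interval from -0.24 to 0.14. These were the narrowest intervals. The spread behind each interval was pooled over all 16 libraries, so the widths are not those of the Raf-active libraries alone. TRIM63 had no peak in any Raf-inactive library, and SULT1A2 had the same number in every library of each Raf-inactive group, which lowers their pooled spread. With only the 8 libraries compared in the fit, none of the 9 loci was called either. MATK averaged 6.31 ± 1.49 in Raf-active hypoxia and 8.31 ± 2.25 in Raf-active normoxia, a difference of -0.34 with an interval from -0.94 to 0.26. For AQP12B, with 6.27 ± 1.97 in Raf-active hypoxia and 5.00 ± 1.78 in Raf-active normoxia, the difference was 0.28 and the interval -0.37 to 0.92.

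The interval of each of these loci thus covers 0, and for MATK and AQP12B it also covers changes of over 0.9 on the log2 scale in one direction. The other 5 loci lay between -0.17 (KRTAP12-4) and 0.14 (IDI2). MATK was called lower in hypoxia under some settings, at matched depth with -0.68 and an adjusted p of 0.0157. CHST15, with -0.48, and ZDHHC11, with -0.78, were called lower in hypoxia among peaks of at least 5-fold enrichment, with adjusted p of 0.00257 and 0.00249 in limma. With the window cut to the gene body plus 2 kb, SULT1A2 was called lower with -0.39.

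**Figure D5:**
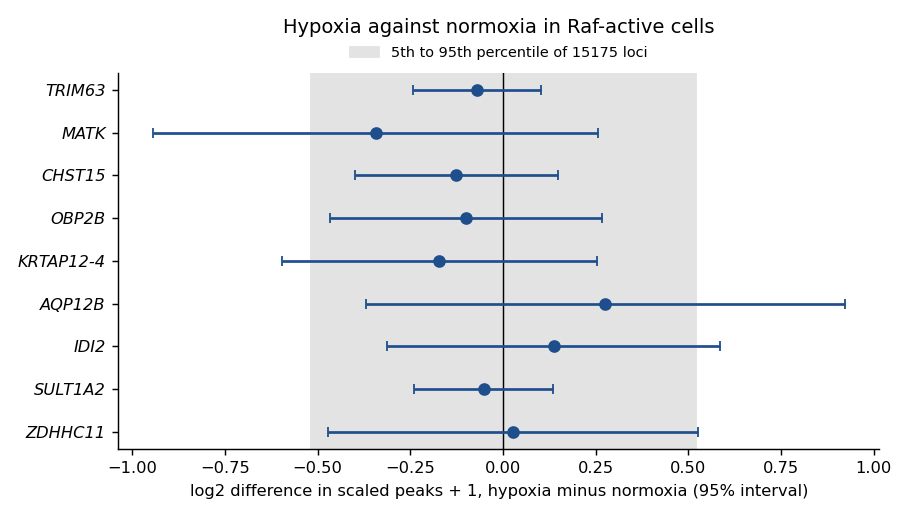
Log2 difference in scaled peaks + 1, hypoxia minus normoxia, in Raf-active cells for each of the 9 loci, with the 95% interval from limma. The spread behind the intervals is pooled over all 16 libraries, Raf-inactive ones included. The grey band spans the 5th to 95th percentile of all 15175 tested loci, -0.52 to 0.52. All 9 points lie inside the band and all 9 intervals cover 0.

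In Raf-inactive cells the loci were near the lower limit of what a peak count can show, and their levels there are part of why they were chosen, so the values are given without a test. CHST15 averaged 5.89 ± 0.56 scaled peaks in Raf-inactive hypoxia and 2.70 ± 0.63 in Raf-inactive normoxia (SD, n = 4 each), a log2 difference of 0.91, and every hypoxia library was above every normoxia library, as at 16.5% of all tested loci. ZDHHC11 averaged 1.68 ± 1.12 in Raf-inactive hypoxia and 4.05 ± 1.61 in Raf-inactive normoxia, a difference of -0.93. SULT1A2 had the -1.06 that its 1 peak per Raf-inactive normoxia library gives, and IDI2 -0.79. Over all tested loci 6.02% were called higher and 6.81% lower in this contrast, and without scaling the calls split into 586 higher and 1412 lower, against 913 and 1034 with it.

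Several windows are shared with neighbouring genes, so their peaks cannot be assigned to the named gene alone. TSPEAR, which contains KRTAP12-4, had 93 peaks over the 4 Raf-active hypoxia libraries, 21 in Raf-inactive hypoxia, 116 in Raf-active normoxia and 22 in Raf-inactive normoxia. ZFR2, beside MATK, had 58, 14, 72 and 16 in the same order of groups. SLC30A2 is next to TRIM63 and encodes a zinc transporter, and had 27, 8, 29 and 8. Unlike TRIM63 it had peaks in the Raf-inactive groups.

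RAX2 also shares the window of MATK, KRTAP10-11 and KRTAP12-3 that of KRTAP12-4, AQP12A that of AQP12B, and GTPBP4 that of IDI2. SGF29 and SULT1A1 share that of SULT1A2, and LOC128966726 and BRD9 that of ZDHHC11. The genes named here as sharing a window have a gene body that lies in or touches it. No other protein-coding gene body does so at CHST15 and OBP2B. AQP12A, SULT1A1, OBP2A and ZDHHC11B are close copies of AQP12B, SULT1A2, OBP2B and ZDHHC11, and how reads that fit both copies were placed is not given in the sources used here, so the counts at these 4 members are less sure.

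Position, which the choice did not use, and length varied among the 9 loci. Length sets the window in which peaks were counted, so it is not independent of the choice. On the side of higher coordinates, the end of the last protein-coding gene stood in for the chromosome end. The distance to the nearer end was under 6 Mb for 6 of 9, against 15.2% of tested loci. Its median was 3.78 Mb for the 9 and 27.9 Mb for all tested loci. The limit of 6 Mb falls in the gap between OBP2B at 4.90 Mb and CHST15. The other 3 were CHST15 at 9.53 Mb, TRIM63 at 26.1 Mb and SULT1A2 at 28.6 Mb. The median number of protein-coding genes within 500 kb was 24 for the 9 and 13 for all tested loci, with CHST15 at 5 and IDI2 at 8 below the second value. The median length was 16330 bp for the 9 and 32173 bp for all tested loci, and ZDHHC11 at 64959 bp and CHST15 at 85931 bp were longer than that. Within 1 kb of a protein-coding start were 11 of their 107 regions, or 10.3%, against 5.34% of all regions on chromosomes with starts in the table. The sets are unlike, since regions of the 9 lie within 10 kb of a protein-coding gene by definition and all regions need not. These are descriptions of 9 chosen loci and were not tested.

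Relatives of the 9 genes were counted to see how far the families moved. The list was made by family, but with earlier results of these data known, so it is not independent of them. Of 76 listed, 52 were tested and shared no window with a member. Raf-active cells had more peaks than Raf-inactive ones at 15 and fewer at 12 in hypoxia, and more at 23 and fewer at 12 in normoxia (limma, adjusted p below 0.05). Over all tested loci 33.8% were higher and 26.4% lower in hypoxia, and 37.4% higher and 25.6% lower in normoxia. The median log2 difference of the 52 was 0.10 in hypoxia and 0.17 in normoxia, against 0.06 and 0.10 over all tested loci. In hypoxia against normoxia 4 of the 52 were higher and 9 lower in Raf-active cells, and 4 higher and 1 lower in Raf-inactive cells.

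The lipocalins, secreted carriers of small molecules and the family of OBP2B, were higher with Raf at 5 of 8 tested loci in hypoxia and at 8 of 8 in normoxia, with none lower. LCN1, the tear lipocalin, had 7 to 8 peaks per library in Raf-active hypoxia and 3 to 4 in Raf-inactive hypoxia, and 8 to 10 in Raf-active and 2 to 4 in Raf-inactive normoxia. Its log2 difference was 0.79 (SE 0.14, adjusted p = 0.000129 in limma) in hypoxia and 1.04 (SE 0.14, adjusted p = 6.22e-06) in normoxia. OBP2A, the close copy of OBP2B, had 0.10 in hypoxia (adjusted p = 0.496 in limma) and rose by 0.65 in normoxia (adjusted p = 0.00018). Several of these lipocalins are neighbours on chromosome 9 and can share peaks.

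Of TRIM54, TRIM55, FBXO32 and TRIM62, muscle ubiquitin ligases or relatives of TRIM63, 1 was higher and 2 lower with Raf in hypoxia, and none higher and 1 lower in normoxia. TRIM54, which encodes MuRF3, was the one that rose, by 0.29 in hypoxia (adjusted p = 0.00955 in limma), with 0.022 in normoxia (adjusted p = 0.839). TRIM72, below the filter, had 3 to 4 peaks per library in Raf-active hypoxia and 1 to 3 in Raf-active normoxia, against 1 in every Raf-inactive library. TRIM55, which encodes MuRF2, had a log2 difference of -0.34 in hypoxia and -0.31 in normoxia. Among CSK and Src family kinases, 7 loci in all and relatives or targets of MATK, 1 was higher and 2 lower in hypoxia, and 3 higher and 3 lower in normoxia. SRC, the founding member of the family, had 0.57 in hypoxia and 0.68 in normoxia, while FYN had -0.77 in hypoxia and -0.45 in normoxia.

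Enzymes that sulfate or epimerize chondroitin, as CHST15 does at another step, were higher with Raf at 3 and lower at 3 of 7 tested loci in hypoxia, and higher at 3 and lower at 1 in normoxia. CHST11, a chondroitin 4-O-sulfotransferase, had 0.86 in hypoxia and 0.72 in normoxia. Palmitoyltransferases were higher at 3 and lower at 3 of 9 in hypoxia and higher at 4 and lower at 2 in normoxia. The largest rise among them, ZDHHC11B with 1.06 in hypoxia and 0.89 in normoxia, is at a locus that overlaps the window of ZDHHC11. ZDHHC17 fell by 1.54 in hypoxia and by 0.65 in normoxia on the log2 scale.

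Isoprenoid enzymes were higher at 1 and lower at 1 of 9 in hypoxia and higher at 3 and lower at 1 in normoxia, with PMVK, which phosphorylates mevalonate phosphate, at 0.54 in hypoxia and 1.25 in normoxia. IDI1, among these enzymes and called for Raf in neither oxygen state, has a window that overlaps that of IDI2. Aquaporins were higher at 3 and lower at 1 of 8 in hypoxia and higher at 3 and lower at 2 in normoxia. One of the aquaporins that rose, AQP12A, shares the window of AQP12B. Cytosolic sulfotransferases were higher at 1 and lower at none of 4 in hypoxia, the 1 being SULT1A1, whose window overlaps that of SULT1A2, and higher at 2 and lower at 2 in normoxia. None of 9 keratin-associated proteins reached the mean of 3 peaks. Their summed peaks were 14 to 17 per library in Raf-active hypoxia, 2 to 7 in Raf-inactive hypoxia, 20 to 22 in Raf-active normoxia and 3 in each Raf-inactive normoxia library. The windows of KRTAP12-2, KRTAP12-3 and KRTAP10-10 overlap that of KRTAP12-4, so peaks of the member enter these sums again. KRTAP12-3 alone had 5 peaks per library in Raf-active hypoxia and 5 to 6 in Raf-active normoxia.

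Marker loci of other cell types were counted as well, among them tissues in which some of the 9 genes are known. Skeletal muscle markers had 52 to 58 summed peaks per library in Raf-active hypoxia, 21 to 25 in Raf-inactive hypoxia, 50 to 61 in Raf-active normoxia and 18 to 27 in Raf-inactive normoxia. Of 5 tested, 3 were higher and 1 lower with Raf in hypoxia, and 4 were higher in normoxia. RYR1, the calcium release channel of muscle, was the largest contributor, with 27 to 29 peaks in Raf-active and 2 to 4 in Raf-inactive hypoxia, and 24 to 30 in Raf-active and 4 to 6 in Raf-inactive normoxia. MYOD1, which commits cells to muscle, had a log2 difference of -0.34 in hypoxia and 0.34 in normoxia.

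Blood markers were higher with Raf at 3 of 6 tested loci in hypoxia, and higher at 5 and lower at 1 in normoxia. The summed peaks of these 7 markers were 56 to 64 in Raf-active and 31 to 35 in Raf-inactive hypoxia, and 53 to 60 in Raf-active and 31 to 35 in Raf-inactive normoxia. Both tested pancreas markers were higher with Raf in each oxygen state. The 5 pancreas markers summed to 18 to 22 in Raf-active and 5 to 7 in Raf-inactive hypoxia, and 14 to 17 in Raf-active and 6 to 7 in Raf-inactive normoxia. PTF1A, which defines acinar cells, had no peak in any library. Neuronal markers were higher with Raf at 2 and lower at 2 of 4 in each oxygen state. RBFOX3, a splicing factor of neurons, had 1.53 in hypoxia and 1.64 in normoxia, while SYT1, a calcium sensor of synaptic vesicles, had -1.41 in hypoxia and -1.5 in normoxia. The 4 neuronal markers summed to 116 to 128 in Raf-active and 75 to 88 in Raf-inactive hypoxia, and 124 to 150 in Raf-active and 85 to 92 in Raf-inactive normoxia. Of 5 endothelial markers 2 were higher and 1 lower in hypoxia, and 3 higher and 1 lower in normoxia. Of 6 tested epithelial markers 1 was higher in hypoxia, and 1 was higher and 1 lower in normoxia. Whether other cells had a part in the values of the 9 loci was not tested.

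Of the tested loci that share no window with a member, 6 lay nearest to the mean pattern of the 9 over the 16 libraries, by Euclidean distance on log2(scaled peaks + 1). They were LDLRAD1, RBX1, MSANTD5, CELA3A, ZNF707 and TUG1, at distances from 1.37 (LDLRAD1, Pearson r 0.98) to 1.61 (TUG1, r 0.99). The points share libraries and depth, so r is a description. Each had exactly 1 peak in every Raf-inactive library and between 5 and 10 in every Raf-active library. RBX1, a subunit of cullin ubiquitin ligases, had 6 to 7 in Raf-active hypoxia and 7 to 9 in Raf-active normoxia, and CELA3A, a pancreatic elastase, 6 to 8 in both.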

How the data were processed

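Reads were aligned to hg38 and peaks called with tools that, per the submitters' processing notes, included Bowtie2 and MACS2, beside cutadapt, FastQC, Picard, bedtools, SAMtools and deepTools; settings, versions and the treatment of reads that fit several places are not given in the sources used here. The authors deposited 1 narrowPeak list per library, unpooled. Each line of the deposited lists holds a score, the fold enrichment (a ratio) at the summit, a -log10 p, a -log10 q and, as the only other column used, the summit's offset. All of these move with depth, so they were compared only inside one list.

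Lines with the same interval were merged, and chromosomes 1 to 22 and X kept. Peaks were counted per locus, scaled to the same total over loci, taken as log2(scaled + 1) and, where a locus averaged 3 peaks or more, fitted in limma 3.58.1 (R 4.3.3) with 4 group means over all 16 libraries, with Benjamini-Hochberg adjusted p-values called below 0.05. The fit was tested on simulated counts. These did not include loci at 0 in whole groups, so they say nothing about the fit at such members. The pileup and background of each peak were recovered from its fold and p as a Poisson tail, and the pileup came out whole within 0.05 for 100% of solvable peaks in every library. Lists of matched depth were thinned to a background of 3.01, keeping a -log10 p of at least 5. Regions were the union of the 16 lists. Loci, starts and promoters came from RefSeq (GRCh38.p14). The members, gene lists, neighbours and alternatives were chosen with earlier results of these data known. Named genes were the members, genes sharing their windows, listed relatives and markers, and the 6 loci of nearest pattern. IGSF21, TERT, MUC6 and DRC11L were named as loci outside the choice that ranked among or next after its leading members. A motif search around the summits was not run.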

Additional observations from a re-analysis of the deposited data

Results flagged for a closer look

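In 9 of the 36 groups of 4 libraries at the 9 loci, the peak number of 1 library stood apart from the other 3, which were tied, so any difference of 1 peak was enough. Chance alone sets apart about 1 in 20 groups of continuous values, and tied small counts more. Among Raf-active hypoxia libraries, KRTAP12-4 had 6 peaks in 1 library against 5 in the others. In Raf-inactive hypoxia, CHST15 had 6 peaks in 1 library against 5, OBP2B 1 against 0, and ZDHHC11 3 against 1. In Raf-active normoxia, OBP2B had 6 in 1 library against 7, KRTAP12-4 7 against 6, and SULT1A2 5 against 7. In Raf-inactive normoxia, MATK had 1 in 1 library against 0, and IDI2 0 in 1 library against 1.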

How the results depend on the processing

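The selection fixes the sign of the Raf differences of the 9 loci, and their size depended on the setting: 44 values in hypoxia and 39 in normoxia moved by over 1 SD between replicates. Among peaks of at least 5-fold they were smallest for IDI2, at 0 in each state since it has no such peak, for AQP12B, at 0.25 in hypoxia and 0.51 in normoxia, and, in hypoxia, for ZDHHC11 at 0.54. Under that setting limma called 4678 of all 15175 tested loci higher in hypoxia and 5123 in normoxia. The 7 of 9 members among them in each state are no test, since the loci were chosen for this contrast. The regions gained at the 9 loci numbered 10 in hypoxia, 13 in normoxia and 6 in both among peaks of at least 5-fold, and 22, 29 and 16 at matched depth, an alternative added after seeing the data, as was a spread that follows the level. At 5-fold these were 9.35%, 12.1% and 5.61% of the 107 regions, against 7.71%, 8.28% and 4.11% of all regions. At matched depth they were 20.6%, 27.1% and 15.0%, against 10.1%, 10.6% and 5.02% of all regions. Loci called between hypoxia and normoxia numbered 6234 in Raf-active and 3478 in Raf-inactive cells by base pairs covered, against 4112 and 1947, and 1101 in Raf-inactive cells when only the 8 libraries compared were fitted.

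In Raf-active cells, the members called for hypoxia numbered 1 at matched depth, 1 with lists of equal length, 1 at a -log10 q of at least 5 and 1 by base pairs covered, each time MATK and lower. They numbered 2 among peaks of at least 5-fold (CHST15 and ZDHHC11, lower) and 1 with the gene body plus 2 kb (SULT1A2, lower), and the cause was not tested. None was called with any 1 library left out.

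Differences that changed sign were the following, all uncalled but that of ZDHHC11 among peaks of at least 5-fold. Among peaks of at least 5-fold, TRIM63 had 0.34, OBP2B 0.094, KRTAP12-4 0.17, AQP12B -0.26 and ZDHHC11 -0.78. At a -log10 q of at least 5, TRIM63 had 0.084, OBP2B 0.034, SULT1A2 0.060 and IDI2 -0.44. With lists of equal length, AQP12B had -0.069, IDI2 -0.82 and SULT1A2 0.037, and at matched depth IDI2 had -0.45 and ZDHHC11 -0.26. KRTAP12-4 had 0.014 and ZDHHC11 -0.020 with the gene body plus 2 kb, and ZDHHC11 -0.020 without scaling and -0.095 by base pairs covered. With 1 library left out, the range was -0.14 to 0.0067 for TRIM63, -0.029 to 0.30 for IDI2, -0.13 to 0.018 for SULT1A2 and -0.074 to 0.090 for ZDHHC11. In Raf-inactive cells, ZDHHC11 had 0.0027 among peaks of at least 5-fold.

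Same-numbered libraries showed no shared deviation: 16 correlations of their deviations ran from -0.04 to 0.01, and a library matched its own number best in 4 of 16. This cannot show whether same-numbered libraries were prepared together, which the labels do not say. With the replicate number as a block, 3924 and 1797 loci were called for hypoxia in Raf-active and Raf-inactive cells, and 9026 and 9477 for Raf in hypoxia and in normoxia, and 0 members for hypoxia in Raf-active cells. Depth limits all counts of 0, and 4 libraries per group limit the intervals.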
